A study of Homo sapiens with 24 samples.

Results

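The mitosis genes described here are 40 genes whose products drive a cell through mitosis, from the cyclins and kinases that start it to the proteins that cut the daughter cells apart. They were given as a list of symbols, chosen with earlier results of these data known, and each was found by its Ensembl gene ID among the 33382 genes of the deposited tables. All 40 passed the filter on low counts and were tested together with all other genes that did, 15302 in total. They were grouped by role into 9 cyclins, CDK1 and mitotic kinases or their regulators, 5 genes of the spindle checkpoint, 6 of the centromere and kinetochore, 3 of the chromosomal passenger complex, 6 motors and spindle factors, 5 cytokinesis genes, 4 genes of anaphase and its ubiquitin ligase, and 2 genes of chromosome structure and proliferation, MKI67 and TOP2A.

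The RNA came from SW480 and SW620, human colon adenocarcinoma lines that were established from the primary tumour and from a lymph node metastasis of the same patient. Each line was infected with a lentivirus that carried Tet2CD, the catalytic domain of the DNA demethylating enzyme TET2, or with the empty vector, and was selected with 5 µg/ml puromycin. The cells were then cultured for 24 h with DMSO, with TGFB1 at 4 ng/ml, which is a ligand of the TGF-beta receptors, or with RepSox at 1 µM, an inhibitor of the TGF-beta type I receptor. These 2 lines, 2 constructs and 3 treatments made 12 groups of 2 libraries. Nothing in the labels tells whether both libraries of a group stem from different cultures, or whether a line was 1 clone, so every p-value rests on library-to-library spread alone, and that spread may be technical. All groups carry a lentivirus and went through the puromycin selection.

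Mitosis begins when cyclin B and CDK1, switched on by the CDC25 phosphatases, phosphorylate many substrates, and the kinases PLK1, AURKA and AURKB build and correct the spindle. The spindle checkpoint holds the anaphase-promoting complex until every kinetochore is attached, after which CDC20 and UBE2C direct the destruction of securin, encoded by PTTG1, and of cyclin B. Transcription of most of these genes peaks in G2 and mitosis and is held down in resting cells, through promoter elements called the cell cycle genes homology region (CHR), to which MuvB complexes bind, and CCAAT boxes, to which NF-Y binds. FOXM1 and MYBL2 are activators that act with MuvB, and the CDK inhibitor encoded by CDKN1A favours the repressive form.

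Promoters were read from RefSeq (GRCh38.p14) as windows of 300 bases, from 250 before to 50 after an annotated start, and 43 such windows were found for 33 of the 40 genes. The sequences are shown because they hold the elements through which these genes are known to be transcribed together. A CHR, searched as TTTGAA or TTTAAA on both strands, lay in 34 of the 43 windows (79.1%), which belonged to 30 of the 33 genes, whereas 24.0% of the 34796 windows of all genes held one. CCAAT, also searched on both strands, lay in 32 of the 43 windows (74.4%) against 34.6% of all windows. A CHR together with at least 2 CCAAT boxes lay in 16 (37.2%) against 2.73%. In 22 of the 43 windows (51.2%) a CHR began within the 60 bases before the start, as it did in 5.50% of all windows, and this narrower span was chosen after the matches had been seen. Below, the matches to the CHR and to CCAAT on either strand are in capitals, and each window is written 5′ to 3′ on the strand of its gene. The last of the lines is the most upstream of 4 windows of the phosphatase gene CDC25B, picked after its values had been seen.
CCNB1, chr5:69166900-69167199, plus strand: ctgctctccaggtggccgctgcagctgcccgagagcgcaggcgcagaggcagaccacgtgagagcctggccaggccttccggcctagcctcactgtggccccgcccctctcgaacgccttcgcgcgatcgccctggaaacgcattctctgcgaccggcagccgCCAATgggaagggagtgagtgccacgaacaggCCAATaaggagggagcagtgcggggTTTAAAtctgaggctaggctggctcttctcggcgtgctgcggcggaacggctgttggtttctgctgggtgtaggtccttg
CCNB2, chr15:59104896-59105195, plus strand: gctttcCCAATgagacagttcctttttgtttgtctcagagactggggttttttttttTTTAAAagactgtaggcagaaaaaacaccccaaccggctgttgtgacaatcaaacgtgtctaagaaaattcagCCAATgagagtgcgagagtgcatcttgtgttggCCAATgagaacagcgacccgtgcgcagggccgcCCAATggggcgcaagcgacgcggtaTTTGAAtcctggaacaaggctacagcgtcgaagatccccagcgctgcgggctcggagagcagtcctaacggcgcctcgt
CDC20, chr1:43358731-43359030, plus strand: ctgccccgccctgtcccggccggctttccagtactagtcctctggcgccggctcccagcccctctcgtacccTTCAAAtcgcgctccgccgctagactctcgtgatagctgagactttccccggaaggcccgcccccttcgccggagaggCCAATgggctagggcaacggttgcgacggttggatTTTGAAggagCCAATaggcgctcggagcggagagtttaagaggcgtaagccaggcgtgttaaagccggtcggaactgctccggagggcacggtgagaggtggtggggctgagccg
PLK1, chr16:23678639-23678938, plus strand: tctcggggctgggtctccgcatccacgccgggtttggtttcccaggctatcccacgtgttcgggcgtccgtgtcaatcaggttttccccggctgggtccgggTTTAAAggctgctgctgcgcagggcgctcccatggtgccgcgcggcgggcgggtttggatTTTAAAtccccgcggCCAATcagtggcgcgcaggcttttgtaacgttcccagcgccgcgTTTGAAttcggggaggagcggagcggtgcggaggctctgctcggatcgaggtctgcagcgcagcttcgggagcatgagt
MKI67, chr10:128126374-128126673, minus strand: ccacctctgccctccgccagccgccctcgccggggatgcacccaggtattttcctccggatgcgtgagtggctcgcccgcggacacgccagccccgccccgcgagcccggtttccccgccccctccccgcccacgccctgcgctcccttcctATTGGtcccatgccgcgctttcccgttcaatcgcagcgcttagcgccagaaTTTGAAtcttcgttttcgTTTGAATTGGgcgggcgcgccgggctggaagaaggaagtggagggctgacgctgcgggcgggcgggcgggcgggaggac
CDC25B, chr20:3786701-3787000, plus strand: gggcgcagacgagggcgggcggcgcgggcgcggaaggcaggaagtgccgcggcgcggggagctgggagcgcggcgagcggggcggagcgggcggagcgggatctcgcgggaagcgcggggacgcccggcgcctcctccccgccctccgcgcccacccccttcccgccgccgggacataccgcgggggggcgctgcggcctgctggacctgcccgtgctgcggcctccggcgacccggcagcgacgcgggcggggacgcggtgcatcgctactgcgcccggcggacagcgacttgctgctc
CCNB1, CCNB2, CDC20, PLK1 and MKI67 each held at least 1 CHR and at least 1 CCAAT box. The printed window of CDC25B held neither, and of the 4 windows of that gene 1 held a CHR and 2 others a CCAAT box. The windows of AURKB, BUB1 and CCNA2 held no CHR, and those of HMMR and ANLN held 2 each. Of these genes AURKB fell with TGFB1 in SW620, as given below, and HMMR and ANLN did not pass. The relation of these elements to the changes was not tested. A match is a description of the letters and says nothing of whether a factor was bound in these cells.

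The libraries held 2146123 to 4410567 counts (median 3653712), and levels below are CPM, counts scaled to the size of the library with TMM factors, unless they are called TPM, which is also divided by transcript length. TET2, the check of the construct, was at 10.3 to 25.0 CPM in the 12 vector libraries and at 270 to 2640 CPM in the 12 Tet2CD libraries, so no library went against its label. The summed TPM of 12 colon epithelial markers was between 7942 and 14735, most of it from KRT8, KRT18 and KRT19. CDX1, LGALS4, GPA33, CDH17 and KRT20 of that list were at most 7.33 TPM in any library. The sums of 6 blood cell, 5 endothelial and 6 fibroblast markers reached at most 46.4, 17.3 and 112. They differed between lines and, in SW480, between constructs. In SW620 the blood cell sum differed too, at 16.7 to 35.2 with Tet2CD and 33.6 to 46.4 with the vector, mostly from CD68. Replicate 1 of each of the 3 SW480 Tet2CD groups stood apart: ribosomal protein genes held 10.1%, 11.8% and 15.0% of its counts in DMSO, TGFB1 and RepSox, against at most 9.42% in the other 21 libraries, and the mean GC content of its counts was 52.9% to 54.0%, against at most 52.2%. In these 3 libraries the members differed from replicate 2 by between -3.07 (ECT2) and 1.32 (PTTG1) on the log2 scale. Most comparisons are therefore also given without these 3 libraries. All 24 libraries share 1 estimate of the spread, so leaving these 3 out also changes the calls in SW620. More of all genes were called without them in most comparisons as well. Member counts without the 3 are therefore not comparable to the shares of all genes from the fit over all libraries.

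All 40 genes had counts in every library, down to 10 counts for NUF2, 14 for CENPE and KIF18A and 15.1 for ECT2 in SW480 Tet2CD RepSox replicate 1. Per length, PTTG1 (median 370 TPM), UBE2C (307), CCNB1 (228), BUB3 (208), TOP2A (183), CDC25B (182) and CDC20 (182) had the highest medians over the 24 libraries, and CENPE (7.86 TPM), the kinesin that carries chromosomes to the spindle equator, and KIF18A (18.6) had the lowest. The summed TPM of the 40 genes was highest in SW620 vector cells with RepSox (5246 ± 425, SD, n = 2) and in SW480 vector cells with DMSO (4952 ± 78.8). SW620 vector cells with DMSO and with TGFB1 had 4457 ± 53.8 and 3083 ± 20.05, and SW620 Tet2CD cells with DMSO, TGFB1 and RepSox had 4256 ± 99.2, 2818 ± 261 and 4756 ± 172. SW480 vector cells with TGFB1 and RepSox were close to each other at 4555 ± 48.3 and 4549 ± 121. The sums of the 3 SW480 Tet2CD groups, 3604 ± 545, 2727 ± 712 and 2929 ± 1026 in DMSO, TGFB1 and RepSox, rest on pairs of libraries that differed widely, so that their order is within their spread. In all of them the better matched replicate 2, at 3990, 3230 and 3655, was still below both SW480 vector libraries of its treatment.

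**Figure D1:**
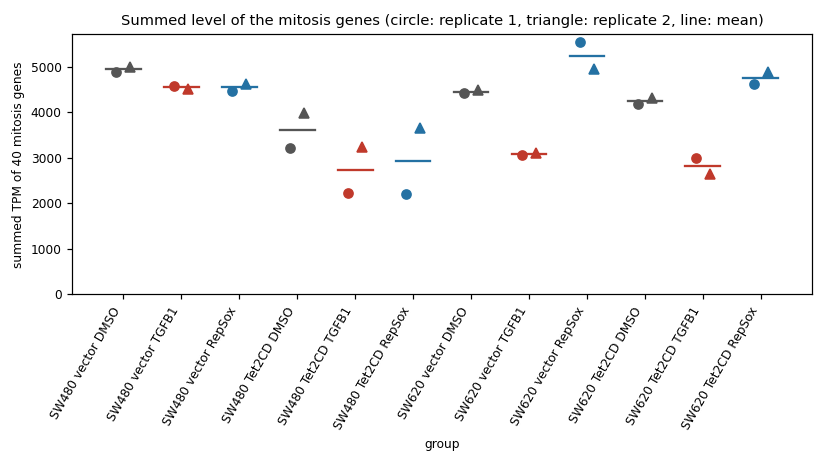
Summed TPM of the 40 mitosis genes (vertical axis) in the 12 groups of line, construct and treatment (horizontal axis), with a circle for replicate 1, a triangle for replicate 2 and a line at their mean. The TGFB1 libraries of SW620 lie at 2634 to 3097, below all DMSO libraries of that line at 4186 to 4495, and the SW480 Tet2CD libraries lie at 2204 to 3990.

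The members did not all follow the same pattern over the 12 groups. The lowest group mean lay in SW620 Tet2CD cells with TGFB1 for 15 members, in SW480 Tet2CD cells with TGFB1 for 11 and in SW480 Tet2CD cells with RepSox for 11, and the highest lay in SW620 vector cells with RepSox for 16 and in SW480 vector cells with DMSO for 10. Over the 12 group means, which include the 3 libraries that stood apart, BUB1 (r = 0.97), KIF4A (0.94) and KIF20A (0.93) followed the mean of all 40 genes most closely, as a description without a test. CDC25B went the other way (r = -0.62), and SPC25 (0.14), FOXM1 (0.25) and CENPA (0.30) followed it least among the rest.

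**Figure D2:**
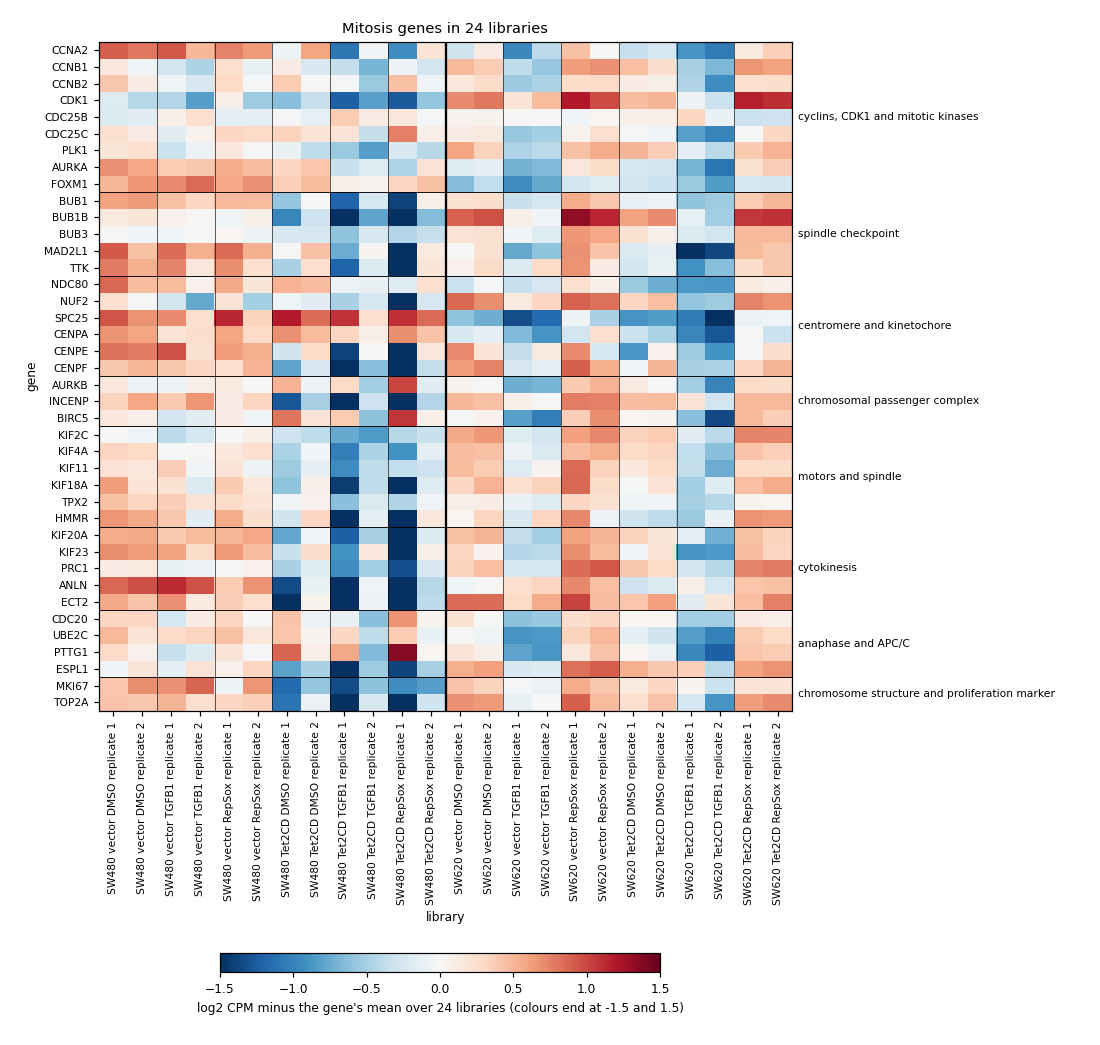
Each row is 1 of the 40 mitosis genes, grouped by role, and each column 1 of the 24 libraries, SW480 on the left and SW620 on the right. Colour gives log2 CPM minus the mean of the gene over all libraries, with colours ending at -1.5 and 1.5, so that the blue columns of SW620 TGFB1 and of SW480 Tet2CD replicate 1 stand out and the row of CDC25B stays pale.

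TGFB1 lowered the mitosis genes in SW620. Of the 40 members, 22 fell and none rose at an adjusted p under 0.05 in the edgeR fit, where 7.27% of all genes tested fell, 8.31% rose and 15.6% were called in either direction. The median log2 fold change of the members was -0.63, a ratio of 64.7%, while that of all genes was 0.01, and 38 of 40 values were below 0. In 30 members each of the 4 TGFB1 libraries lay below each of the 4 DMSO libraries, a pattern seen downwards in 15.7% of all genes. Fewer cells in G2 and mitosis and less mRNA per such cell cannot be told apart in these bulk samples.

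The cyclins and kinases showed it with little scatter. CCNB1, the cyclin B that starts mitosis, was at 262, 243, 257 and 225 CPM in the DMSO libraries (vector replicates 1 and 2, then Tet2CD replicates 1 and 2) and at 144, 126, 134 and 118 in the TGFB1 libraries. It fell by 0.92 ± 0.13 (SE) on the log2 scale, to 52.9% of its DMSO level (adjusted p = 0.000132), and the lowest DMSO library exceeded the highest TGFB1 library. PLK1, the kinase that matures the spindle poles, was at 166, 140, 157 and 143 CPM in DMSO and at 80.3, 83.5, 100 and 83.7 in TGFB1, and fell by 0.80 ± 0.12 (adjusted p = 0.000227), again without overlap. CCNB2, the second cyclin B, fell by 0.75 ± 0.16 (adjusted p = 0.00334), CDC25C, a phosphatase that activates CDK1, by 0.77 ± 0.16 (0.00356), and AURKA, the kinase of the spindle poles, by 0.56 ± 0.13 (0.00809). CDK1 fell by 0.54 ± 0.17 (adjusted p = 0.035) and FOXM1 by 0.37 ± 0.11 (0.0266), both with an overlap of single libraries between the treatments. CCNA2, the cyclin of S phase and G2, had -0.62 ± 0.25 and did not pass (adjusted p = 0.106), although its libraries did not overlap.

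CDC25B was the exception in this role. Its CPM was 325, 326, 331 and 330 in the DMSO libraries and 317, 314, 391 and 291 in the TGFB1 libraries, a log2 fold change of 0.00 ± 0.11. It was singled out after its values had been seen.

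Among the checkpoint genes, MAD2L1, whose product restrains CDC20, had the largest decrease of all members. It was at 47.0, 55.1, 40.5 and 42.4 CPM in DMSO and at 27.7, 31.0, 16.03 and 18.3 in TGFB1, and fell by 1.04 ± 0.26 (adjusted p = 0.0115). The Tet2CD libraries with TGFB1 were lower than the vector libraries with TGFB1. BUB1B fell by 0.93 ± 0.29 (adjusted p = 0.0355) and BUB3 by 0.37 ± 0.10 (0.0166), while BUB1 (-0.50 ± 0.23) and TTK (-0.34 ± 0.30) did not pass. At the kinetochore, CENPA, the histone H3 variant of the centromere, fell by 0.65 ± 0.16 (adjusted p = 0.00859) and CENPF by 0.81 ± 0.23 (0.0234), and the other 4 genes did not pass, with values from -0.75 (NUF2) to -0.18 (NDC80). In the chromosomal passenger complex, which corrects faulty attachments, AURKB fell by 0.76 ± 0.22 (adjusted p = 0.0262) and BIRC5, encoding survivin, by 0.96 ± 0.23 (0.00968), and INCENP had -0.46 ± 0.31.

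Motors and spindle factors were divided. KIF2C, which takes apart misattached microtubules, had the smallest adjusted p of all members. It was at 184, 194, 157 and 161 CPM in DMSO and at 109, 101, 111 and 93.2 in TGFB1, a fall by 0.74 ± 0.10 (adjusted p = 7.36e-05) with no overlap. KIF4A and KIF11 fell by 0.69 ± 0.16 and 0.63 ± 0.16 (adjusted p = 0.00576 and 0.0122), and TPX2 (-0.32 ± 0.11), KIF18A (-0.28 ± 0.27) and HMMR (-0.04 ± 0.33) did not pass. Of the cytokinesis genes, PRC1, which bundles the midzone, fell by 0.69 ± 0.17 (adjusted p = 0.00943) and KIF20A by 0.79 ± 0.25 (0.0443). ANLN, the actin-binding scaffold of the contractile ring, was at 235 and 249 CPM in DMSO and 289 and 308 in TGFB1 in vector cells and at 198 and 210 against 259 and 205 in Tet2CD cells. Its value of 0.24 ± 0.39 did not pass. In the last step, CDC20 fell by 0.63 ± 0.16 (adjusted p = 0.0122), UBE2C by 0.78 ± 0.15 (0.00254) and PTTG1 by 1.01 ± 0.26 (0.0147). PTTG1 has near-identical copies elsewhere in the genome, so its reads may be shared with them. TOP2A, the topoisomerase that untangles sister chromatids, had -0.80 ± 0.34 (adjusted p = 0.126) and MKI67, the proliferation marker that coats mitotic chromosomes, -0.40 ± 0.18 (0.147), and in both each TGFB1 library lay below each DMSO library.

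**Figure D3:**
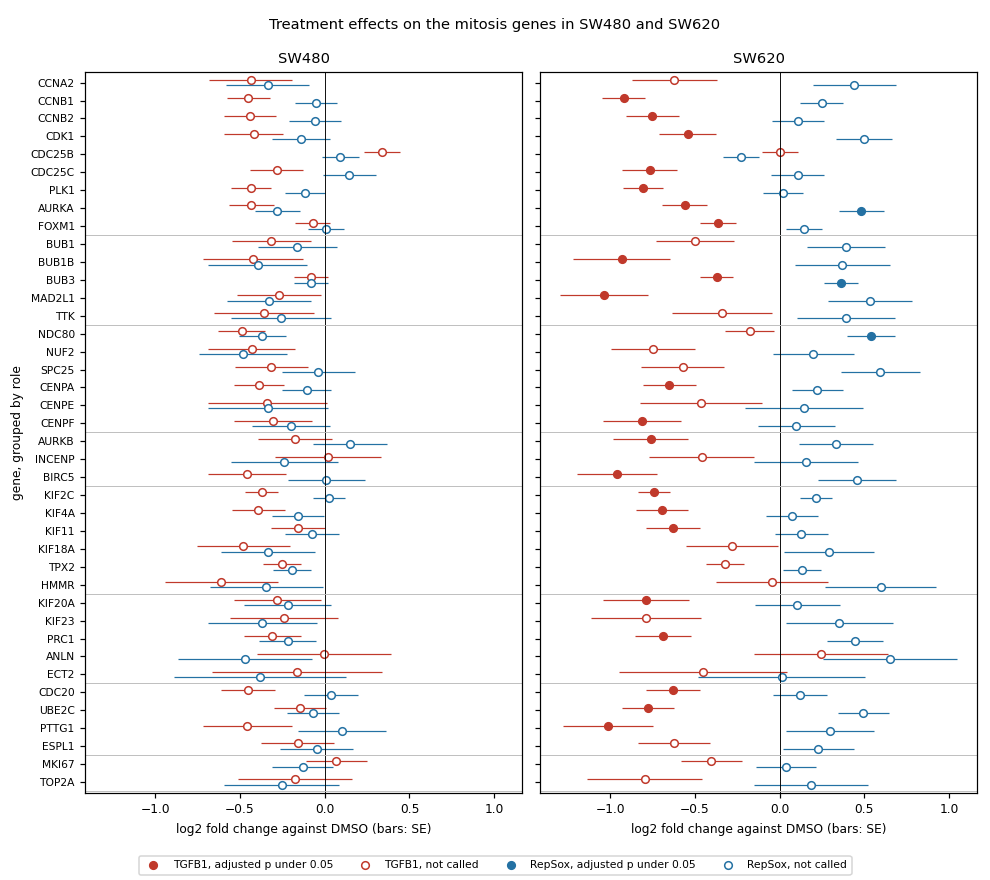
Log2 fold change against DMSO (horizontal axis, bars show the SE) of the 40 mitosis genes (vertical axis, grouped by role) with TGFB1 (red) and RepSox (blue), in SW480 (left) and SW620 (right), each from 4 libraries against 4. Filled points passed an adjusted p of 0.05, as 22 genes with TGFB1 and 3 with RepSox did in SW620 and none in SW480.

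The decrease was present with either construct. In SW620 vector cells the median of the members was -0.58 and in SW620 Tet2CD cells -0.67. Of the 22 calls 12, among them CCNB1, CCNB2, PLK1, AURKA, CDC20, KIF2C and UBE2C, held under all 15 alternatives. In the fit without the 3 SW480 Tet2CD libraries 18.6% of all genes fell and 16% rose. Leaving out 1 library at a time left 13 to 18 calls, with 13 without SW620 Tet2CD TGFB1 replicate 2, and without the 3 SW480 Tet2CD libraries 33 members fell, TOP2A (-0.82) and MKI67 (-0.43) included.

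In SW480 the same treatment gave smaller values that did not pass. With TGFB1, 0 of 40 members were called in edgeR, where 1.05% of all genes were (0.314% lower and 0.732% higher), with 12 members at an unadjusted p under 0.05, and DESeq2 called 1 higher and 5 lower. The median was -0.31 and 37 of 40 values were below 0. The smallest p belonged to KIF2C (-0.37 ± 0.10, adjusted p = 0.0779), PLK1 (-0.44 ± 0.12, 0.0964) and CCNB1 (-0.45 ± 0.13, 0.11). CCNB1 was at 208, 180, 203 and 159 CPM in DMSO and at 153, 135, 147 and 115 in TGFB1, and its groups did not overlap. The same held downwards for CCNB2, NUF2 and CENPA, and in 1.48% of all genes. AURKA (-0.43 ± 0.13), CDC20 (-0.46 ± 0.16), CCNB2 (-0.44 ± 0.15) and CDK1 (-0.42 ± 0.17) had like values, whereas FOXM1 (-0.07 ± 0.10), MKI67 (0.07 ± 0.18), TOP2A (-0.18 ± 0.34) and AURKB (-0.17 ± 0.22) were near 0 for their error. CDC25B went upwards in all 4 libraries, at 271, 280, 308 and 289 CPM in DMSO and at 329, 369, 410 and 343 in TGFB1, with 0.34 ± 0.11 (adjusted p = 0.155). Without the 3 libraries that stood apart the median of the members was -0.29, where that of all genes was 0.01. CCNB1 (-0.45), CCNB2 (-0.49), PLK1 (-0.43), AURKA (-0.43), BIRC5 (-0.58), KIF2C (-0.38), KIF4A (-0.37), CDC20 (-0.46) and PTTG1 (-0.61) lay below the members' median. The calls depended on which of these libraries were used.

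The difference of the TGFB1 effects between the lines was tested directly. It was above 0, that is, the decrease was smaller in SW480, in 35 of 40 members with a median of 0.33, but 0 members were called in edgeR, where 2.07% of all genes were (0.902% above 0 and 1.17% below), 7 had an unadjusted p under 0.05, and DESeq2 also called 0. UBE2C (0.63 ± 0.22, adjusted p = 0.167), KIF2C (0.37 ± 0.14, 0.204) and CCNB1 (0.47 ± 0.18, 0.219) had the smallest p. Without the 3 libraries that stood apart the median of the members was 0.39, where that of all genes was 0.03. The count of members that passed was 0 over all libraries. It was 1 without SW480 Tet2CD TGFB1 replicate 2, so the count depended on which of these libraries were used.

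**Figure D4:**
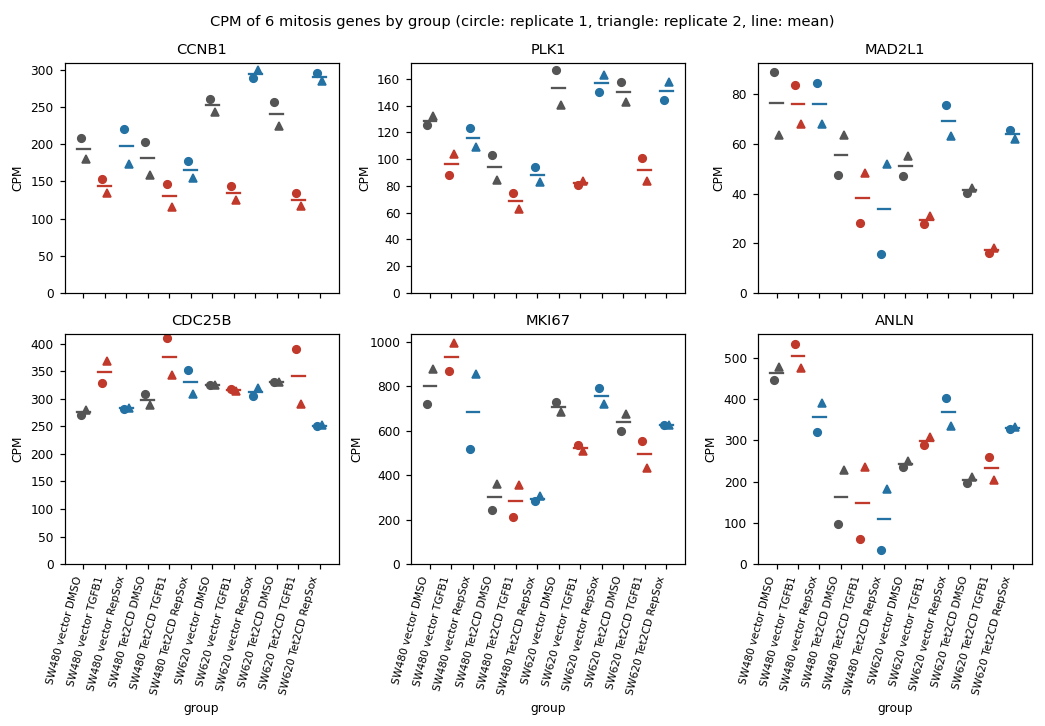
CPM (vertical axes, starting at 0) of CCNB1, PLK1, MAD2L1, CDC25B, MKI67 and ANLN in the 12 groups (horizontal axes), with a circle for replicate 1, a triangle for replicate 2 and a line at the mean. CCNB1 falls from 225 to 262 CPM in SW620 DMSO libraries to 118 to 144 with TGFB1, CDC25B stays between 250 and 410 CPM in all libraries, and MKI67 lies at 214 to 361 CPM in the SW480 Tet2CD libraries and at 515 to 995 in the SW480 vector libraries.

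With RepSox in SW620, NDC80, AURKA and BUB3 rose and none fell, 3 of 40 members where 2.01% of all genes rose, 2.68% fell and 4.69% were called. The median was 0.24, a ratio of 118%, and 39 of 40 values were above 0. These contrasts use the same DMSO libraries as those with TGFB1, so the directions of both are not independent. NDC80, a microtubule-binding subunit of the kinetochore, was at 38.7, 47.2, 33.0 and 29.1 CPM in DMSO and at 57.4, 51.1, 52.9 and 50.9 in RepSox, and rose by 0.54 ± 0.14 (adjusted p = 0.0398). AURKA, at 97.5, 99.4, 91.8 and 90.2 CPM in DMSO and 124, 134, 129 and 143 in RepSox, rose by 0.48 ± 0.13 (adjusted p = 0.0444), and BUB3 by 0.36 ± 0.10 (0.0461). In all of them the groups did not overlap, as in 14 members upwards and in 10.7% of all genes. ANLN had the highest value (0.65 ± 0.39) and did not pass, nor did CDK1 (0.50 ± 0.17, adjusted p = 0.109). CCNB1 (0.25 ± 0.13), AURKB (0.33 ± 0.22), FOXM1 (0.15 ± 0.11), CDC20 (0.12 ± 0.16), CCNB2 (0.11 ± 0.15), TOP2A (0.18 ± 0.34), MKI67 (0.04 ± 0.18) and PLK1 (0.02 ± 0.12) did not either. CDC25B was the only member below 0 (-0.23 ± 0.11, adjusted p = 0.307). It was at 325, 326, 331 and 330 CPM in DMSO and 306, 320, 250 and 252 in RepSox. In the fit without the 3 SW480 Tet2CD libraries 7.17% of all genes rose and 8.24% fell. Leaving out any single one of the 8 libraries, of either construct and either treatment, left 0 calls, and without the 3 SW480 Tet2CD libraries 17 members rose and CDC25B fell.

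In SW480 no member was called with RepSox. In edgeR 0% of all genes and 0 of 40 members passed, 2 had an unadjusted p under 0.05 and DESeq2 called 0 members and 1 gene in all. The median was -0.16 with 32 of 40 values below 0, and NDC80 (-0.37 ± 0.14), AURKA (-0.28 ± 0.13) and NUF2 (-0.48 ± 0.26), each with an adjusted p of 1, had the smallest p, and 1 member was called without SW480 Tet2CD RepSox replicate 2. The difference of the RepSox effects, SW480 minus SW620, was below 0 in 38 of 40 members with a median of -0.42. It passed for NDC80 alone (-0.91 ± 0.20, adjusted p = 0.0406), 1 of 40 members where 1.03% of all genes were called, and AURKA was next (-0.76 ± 0.19, 0.0605). NDC80 was at 87.8, 66.8, 69.4 and 66.8 CPM in SW480 DMSO and at 71.6, 54.7, 42.4 and 56.9 in RepSox, so that it lay lower there with an overlap, while it rose in SW620. That call was lost without any single one of 14 of the 16 libraries and held without SW480 vector DMSO replicate 2. How many members passed depended on which libraries were left out. Without the 3 libraries that stood apart the median of the difference was -0.33 in the members and 0.0015 in all genes.

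Tet2CD was accompanied by lower mitosis genes in SW480. In DMSO alone, MKI67 fell and 39 members did not pass, 1 of 40 where 2.57% of all genes fell, 4.19% rose and 6.76% were called. MKI67 was at 722 and 877 CPM in the vector libraries and at 242 and 361 in the Tet2CD libraries, and fell by 1.40 ± 0.26 (adjusted p = 0.00436), to 37.8% of the vector level. That call was lost without SW480 Tet2CD DMSO replicate 1 and without SW480 vector DMSO replicate 2. Without the 3 libraries that stood apart the median of the members was -0.33, where that of all genes was 0. Over all libraries the median of the members was -0.45 and 34 of 40 values were below 0. PLK1 (-0.46 ± 0.17, adjusted p = 0.103), TOP2A (-0.93 ± 0.48, 0.232), AURKA (-0.27 ± 0.18), FOXM1 (-0.16 ± 0.15), CDK1 (-0.17 ± 0.24), CCNB1 (-0.10 ± 0.18), CDC20 (-0.12 ± 0.22), CCNB2 (-0.07 ± 0.22) and AURKB (0.19 ± 0.31) did not pass.

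Averaged over the 3 treatments, 28 of 40 members fell and none rose in SW480, where 25.3% of all genes fell, 29.2% rose and 54.5% were called. The median was -0.54, a ratio of 68.6%. In this contrast the 3 libraries that stood apart lie on the same side and moved together, so the p-values may be too small. All 5 spindle checkpoint genes, all 6 motors and spindle factors, all 5 cytokinesis genes and both MKI67 and TOP2A fell, but 5 of the 9 cyclins and kinases, 3 of the 6 kinetochore genes, 1 of the 3 passenger complex genes and 1 of the 4 anaphase genes did. MKI67 fell by 1.44 ± 0.15 (adjusted p = 2.76e-06), CENPF, a large kinetochore protein, by 1.17 ± 0.19 (0.000167), TPX2, the activator of AURKA on the spindle, by 0.52 ± 0.09 (0.00035) and KIF20A, a kinesin of cytokinesis, by 1.16 ± 0.21 (0.000392). The next were ESPL1, the separase that cuts cohesin (-0.91 ± 0.18), KIF2C (-0.40 ± 0.08), INCENP, the scaffold of the passenger complex (-1.32 ± 0.26), KIF4A (-0.64 ± 0.13), ANLN (-1.65 ± 0.33) and the checkpoint kinase BUB1 (-0.94 ± 0.19), with adjusted p from 0.000654 to 0.000925. AURKA (-0.50 ± 0.11), PLK1 (-0.45 ± 0.10), FOXM1 (-0.38 ± 0.09), TOP2A (-1.13 ± 0.28) and CDK1 (-0.40 ± 0.14) also fell. CCNB1 (-0.17 ± 0.10), CCNB2 (-0.04 ± 0.13), CDC20 (-0.06 ± 0.13) and AURKB (0.19 ± 0.18) did not pass, and the highest values were those of PTTG1 (0.48 ± 0.21, adjusted p = 0.0657) and BIRC5 (0.40 ± 0.19, 0.0806).

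The size of these values went with transcript length. The 20 members with transcripts longer than 2530.5 bases had a median of -0.92 with 19 that fell, and the 20 shorter ones had -0.23 with 9. The fall was steepest in the libraries that stood apart: ECT2 was at 157 and 142 CPM with the vector in DMSO and at 28.6 and 110 with Tet2CD, and at 137 and 126 against 9.09 and 80.3 in RepSox. PTTG1, a short transcript, was at 191 and 163 CPM against 287 and 167 in DMSO and at 178 and 155 against 400 and 160 in RepSox. Replicate 1 was the extreme in each of these pairs. Over the members the log2 difference from the vector mean had r of -0.67, -0.66 and -0.52 with log2 length in replicate 1 of DMSO, TGFB1 and RepSox and of -0.58, -0.48 and -0.57 in replicate 2, as a description of 40 genes of the same library. The part of RNA quality in these values was not tested.

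Some markers of other cell types moved in the same contrast. The summed TPM of the 6 fibroblast markers was 92.0 to 111.6 in the SW480 Tet2CD libraries and 16.6 to 24.8 in the SW480 vector libraries, and that of the 5 endothelial markers was 5.47 to 17.3 against 1.80 to 4.48. FBLN1, a matrix protein gene, held most of the fibroblast sum, at 81.7 to 105.7 TPM against 10.1 to 16. COL1A1 was at 3.3 to 8.66 TPM against 1.94 to 7.85. The others, COL1A2, DCN, LUM and PDGFRA, were at most 0.9, 0.49, 0.54 and 1.06 TPM in the SW480 Tet2CD libraries. In the SW480 vector libraries they were at most 6.95, 1.25, 0.46 and 0.73 TPM. Of the endothelial markers, PECAM1 was at 0.05 to 0.19 TPM with Tet2CD against 0 to 0.85 with the vector. CDH5 and KDR, which define endothelial cells, were at 0 in all 12 SW480 libraries, and ESAM (3.65 to 12.8 against 1.02 to 2.24 TPM) and VWF (1.67 to 7.82 against 0.56 to 2.22) made up most of the endothelial sum. The 6 blood cell markers summed to 3.03 to 7.84 against 5.37 to 9.81 TPM and the 12 colon epithelial markers to 10458 to 14735 against 8184 to 12897. The part of these markers in the lower mitosis genes was not tested.

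**Figure D5:**
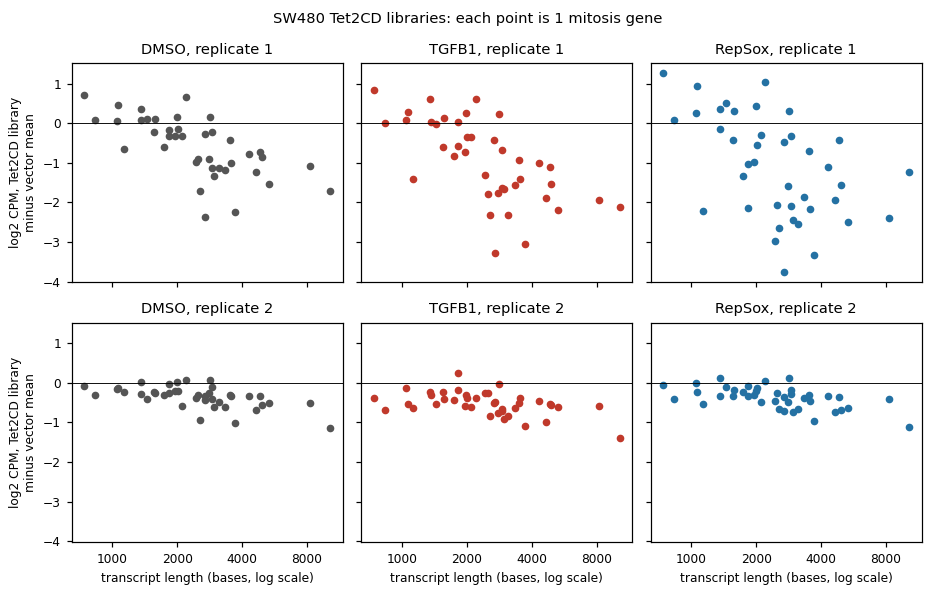
Log2 CPM of each mitosis gene in 1 SW480 Tet2CD library minus its mean in the 2 vector libraries of the same treatment (vertical axes) against transcript length on a log scale (horizontal axes), for replicate 1 (top) and replicate 2 (bottom) of each treatment. In replicate 1 the genes spread from -3.77 to 1.27 and the longer ones are lower, and in replicate 2 they lie between -1.39 and 0.26 with most of them below 0.

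The lower median of the members was not limited to the 3 libraries. In replicate 2 alone 36, 39 and 37 of the 40 members lay below the mean of the vector libraries in DMSO, TGFB1 and RepSox. Their medians were -0.31, -0.53 and -0.35, and MKI67 was the lowest in each (-1.14, -1.39 and -1.12). The share of all genes that lay below was not computed, so these counts and medians alone do not set the members apart. Replicate 2 also had a higher mean GC content of its counts, 51.9% to 52.2%, than the 6 SW480 vector libraries, 50.9% to 51.6%. The part of this in the values was not tested. Without the 3 libraries 29 members fell with a median of -0.40 (-0.55 in the 20 longer and -0.30 in the 20 shorter ones), now with CCNB1 (-0.34), CCNB2 (-0.30), CDC20 (-0.38), UBE2C (-0.49) and AURKB (-0.31) among them, and MKI67 (-1.25), ANLN (-1.04), INCENP (-0.83) and CENPF (-0.82) had the largest decreases. In 17 members each of the 6 Tet2CD libraries lay below each of the 6 vector libraries, as in 9.66% of all genes. MKI67, for example, was at 722, 877, 871, 995, 515 and 854 CPM with the vector and at 242, 361, 214, 355, 283 and 306 with Tet2CD, in the order of DMSO, TGFB1 and RepSox with replicate 1 first in each. Of 30 ribosomal protein genes, 25 rose with Tet2CD in all libraries (median 0.66), and 0 rose and 2 fell without the 3 (median -0.05).

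In SW620 no member was called with Tet2CD in the fit over all libraries. When only the libraries of the contrast were fitted, 7 in DMSO and 8 over the treatments were called, all lower. The shares of all genes that follow belong to the fit over all libraries and are no background for these 7 and 8. In DMSO 0 of 40 passed in edgeR, where 0.0261% of all genes did, 1 had an unadjusted p under 0.05 and DESeq2 called 0. The median was -0.19, with NDC80 (-0.47 ± 0.20), KIF2C (-0.25 ± 0.13) and CENPE (-0.81 ± 0.50) at the smallest p. Averaged over the treatments 0 of 40 passed where 0.314% of all genes did (0.0392% lower), 4 had an unadjusted p under 0.05 and DESeq2 called 0, although 38 of 40 values were below 0 with a median of -0.17, and NDC80 (-0.37 ± 0.12, adjusted p = 0.373), KIF11 (-0.34 ± 0.13, 0.513) and TPX2 (-0.24 ± 0.09, 0.52) came first. MKI67 was at 728 and 684 CPM in vector cells and at 598 and 677 in Tet2CD cells in DMSO, with -0.17 ± 0.15 over the treatments (adjusted p = 0.914). Over the 6 libraries of each construct the groups overlapped in all 40 members. They did so in nearly all genes, so this does not set the members apart. Within a treatment, both Tet2CD libraries lay below both vector libraries in 27 members in DMSO, 22 in TGFB1 and 18 in RepSox. The shares of all genes were 22.7%, 22.4% and 18.9%. Both lay above in 2, 2 and 1 members, where the shares were 23.8%, 21.4% and 19.3%. These counts rest on 2 libraries against 2 and were not tested. Without the 3 SW480 libraries NUF2 (-0.44), CENPF (-0.33) and TPX2 (-0.23) fell over the treatments, where 0.913% of all genes fell and 2.05% rose.

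The difference of the Tet2CD effects between the lines did not pass in DMSO. Of 40 members 0 were called in edgeR, where 0.484% of all genes were, 1 had an unadjusted p under 0.05 and DESeq2 called 1, and MKI67 (-1.26 ± 0.36, adjusted p = 0.176), INCENP (-1.28 ± 0.62, 0.467) and PLK1 (-0.43 ± 0.23, 0.525) had the smallest p. Averaged over the treatments 9 members were lower and none higher in the difference, where 9.93% of all genes were lower, 10.2% higher and 20.1% called. MKI67 differed by -1.28 ± 0.21 (adjusted p = 0.000858) and FOXM1 by -0.48 ± 0.12 (0.0135), and ESPL1, KIF20A, PLK1, INCENP, CENPF, ANLN and KIF2C followed with adjusted p from 0.0211 to 0.0491. Without the 3 libraries that stood apart the median of the difference was -0.24 in the members and -0.04 in all genes. The count of members that passed depended on single libraries. It was 4 without SW620 Tet2CD TGFB1 replicate 1, and 14, 20 and 24 without replicate 2 of SW480 Tet2CD in DMSO, TGFB1 and RepSox. It was 5 without SW480 Tet2CD DMSO replicate 1, without SW480 vector replicate 2 in DMSO, TGFB1 or RepSox, without either replicate of SW620 Tet2CD RepSox or SW620 vector DMSO, and without SW620 Tet2CD DMSO or SW620 vector TGFB1 replicate 2. MKI67 and ESPL1 passed under all 30 alternatives.

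Between the vector lines in DMSO, members differed in both directions, with a median of 0.05 for SW480 against SW620. Of the members 5 were higher and 2 lower in SW480. These 7 of 40 are a smaller share than the 34.5% of all genes that were called (17.8% higher and 16.8% lower). FOXM1, the transcription factor of the set, was at 206 and 230 CPM in SW480 and at 93.5 and 113 in SW620 (1.08 ± 0.15, adjusted p = 3.18e-05), and SPC25, a subunit of the NDC80 complex, at 54.3 and 45.3 against 18.6 and 17.0 (1.48 ± 0.32, 0.00183). CDK1 was lower in SW480, at 76.4 and 64.8 against 142 and 150 CPM (-1.05 ± 0.24, adjusted p = 0.00244), as was KIF2C (-0.65 ± 0.13, 0.00118). AURKA (0.80 ± 0.19), NDC80 (0.85 ± 0.20) and CENPA (0.82 ± 0.21) were the other higher ones, with adjusted p from 0.00305 to 0.00538. Over the 3 treatments 9 members were higher and 7 lower, where 28.9% of all genes were higher and 30% lower. This is again a smaller share than the 58.9% of all genes that were called. FOXM1 (1.19 ± 0.09), SPC25 (1.42 ± 0.19), AURKA (0.72 ± 0.11), CENPA (0.76 ± 0.12), NDC80 (0.55 ± 0.12), CCNA2 (0.91 ± 0.20), UBE2C (0.48 ± 0.12), MAD2L1 (0.69 ± 0.20) and TPX2 (0.23 ± 0.09) were higher, and CDK1 (-1.10 ± 0.14), KIF2C (-0.46 ± 0.08), NUF2 (-0.80 ± 0.20), BUB3 (-0.26 ± 0.08), CCNB1 (-0.29 ± 0.10), BUB1B (-0.65 ± 0.23) and PRC1 (-0.32 ± 0.14) lower. MKI67 (0.29 ± 0.15), PLK1 (-0.15 ± 0.10) and TOP2A (-0.06 ± 0.27) did not pass. Without the 3 SW480 Tet2CD libraries, which this contrast does not use, 13 were higher and 6 lower in DMSO, where 26.5% and 23.6% of all genes were. Over the treatments 20 were higher and 8 lower in that fit, where 36.3% and 33.4% of all genes were.

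Other cell cycle genes were read from the same fits. Of 86 other mitosis genes, 20 fell and none rose with TGFB1 in SW620 (23.3%, where 7.27% of all genes fell, median -0.41), led by PIMREG (-1.25 ± 0.12, adjusted p = 6.18e-06), ZWINT, a kinetochore protein (-0.76 ± 0.11), STMN1, which destabilises microtubules (-0.87 ± 0.14), and DLGAP5 (-0.83 ± 0.15). Of 47 DNA replication genes, 32 fell and none rose (68.1%, median -0.76), led by the helicase subunit gene MCM6 (-1.20 ± 0.12, adjusted p = 7.88e-06), the sliding clamp gene PCNA (-1.30 ± 0.13), MCM3 (-0.77 ± 0.10) and the ribonucleotide reductase gene RRM1 (-0.78 ± 0.10).

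Of 23 regulators of the module, 1 rose (4.35%, where 8.31% of all genes rose) and 4 fell (17.4%, where 7.27% fell) with TGFB1 in SW620, and the following values are those of single genes. CDKN1A rose by 1.34 ± 0.17 (adjusted p = 6.52e-05), E2F4, whose product represses cell cycle genes in resting cells, fell by 0.69 ± 0.11 (0.000403), RBL1 by 0.66 ± 0.15, MYBL2 by 0.70 ± 0.19 and TFDP1 by 0.83 ± 0.24. In SW480 CDKN1A had -0.11 ± 0.12 (adjusted p = 0.795), and the difference of its effects between the lines was -1.44 ± 0.21 (0.00197). Between vector cells in DMSO, CDKN1A was higher in SW480 than in SW620 by 5.10 ± 0.23 on the log2 scale (adjusted p = 1.27e-10). With TGFB1 in SW480, PIMREG (-0.93 ± 0.12, adjusted p = 0.00154) and the replication factor gene CDC45 (-0.71 ± 0.14, 0.0165) were the members of these lists that fell.

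With RepSox in SW620, 2 of the other mitosis genes rose (2.33%, near the 2.01% of all genes), ZWILCH (0.69 ± 0.18) and CENPN (0.48 ± 0.13), as did 8 of the replication genes (17%), led by CDC45 (0.76 ± 0.13, adjusted p = 0.00318), MCM3 (0.40 ± 0.10), FEN1 (0.58 ± 0.15) and DTL (0.65 ± 0.17), and TFDP2 fell (-0.47 ± 0.13). Without any single library of this contrast the genes called dropped from 717 in all to between 343 and 412, and without the 3 libraries 22 of the other mitosis genes and 21 of the replication genes rose. With Tet2CD in SW480 over the treatments, where 25.3% of all genes fell and 29.2% rose, 49 of the other mitosis genes fell (57%) and 12 rose (14%), and by smallest adjusted p ANAPC1 (-0.85 ± 0.11), STAG2 (-1.40 ± 0.22), NCAPD2 (-0.96 ± 0.15) and NCAPH (-0.92 ± 0.15) fell, and STMN1 (0.58 ± 0.12), ANAPC11 (1.31 ± 0.28), MAD1L1 (1.01 ± 0.21) and PKMYT1 (0.92 ± 0.21) rose. Of the replication genes 22 fell, led by POLA1 (-1.08 ± 0.16), and 3 rose, TK1 (0.99 ± 0.19), RPA3 (0.93 ± 0.23) and MCM5 (0.43 ± 0.12). Of the regulators 10 fell, led by RBL1 (-0.64 ± 0.12) and E2F3 (-0.84 ± 0.17), and LIN37 (1.34 ± 0.27), E2F1 (0.41 ± 0.16) and E2F2 (0.47 ± 0.19) rose. Without the 3 libraries that stood apart, where 19.9% of all genes fell and 18.1% rose, 44 of the other mitosis genes fell and 5 rose, 18 of the replication genes fell and 1 rose, and 8 of the regulators fell and 1 rose.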

How the data were processed

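RNA of SW480 and SW620 cells was sequenced by the authors as 24 TruSeq libraries on an Illumina NextSeq, and reads were trimmed with Trimmomatic and counted with RSEM and Bowtie. The deposited tables give expected counts per gene, estimated by RSEM and not normalized, and TPM, which the authors' program scales to transcript length and library total. The deposited FPKM values, made by the authors with RSEM from the same counts, were not used. The study's methods name an Ensembl human annotation and the submitters' processing notes name mm10, while the gene IDs are human. The strand setting was not given in the sources used here. Labels were followed where the study's methods give a longer treatment and further ligands. In 22 tables effective length equalled length.

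Expected counts were rounded and tested with edgeR 4.0.16 in R 4.3.3 (quasi-likelihood test, TMM scaling, filterByExpr), with 12 group means over all 24 libraries, 12 residual degrees of freedom and Benjamini-Hochberg adjustment over 15302 genes at 0.05. The common biological coefficient of variation was 21.27%. Treatment effects are means over both constructs. Log2 CPM used a prior count of 2. Errors of fold changes are SE, and those of levels SD. Symbols and GC content came from GENCODE 29 (GRCh38) by gene ID, for 32777 of 33382 genes. The script was tested on simulated counts. DESeq2 1.42.0 and the other alternatives are given in the closing section. Figures were drawn with matplotlib 3.10.9.

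The 40 members and the other lists were chosen with earlier results of these data known. Members were named in each comparison by smallest adjusted p, with at most 10 called in either direction or, where none passed, the 3 with the smallest p, always MKI67, TOP2A, CCNB1, CCNB2, CDK1, PLK1, AURKA, AURKB, CDC20 and FOXM1, and up to 4 genes per direction of the other lists. Other members with values were singled out after their values had been seen. In no group did the libraries agree within sampling noise (chi-square per degree of freedom 1.63 to 42.9), so none was treated as a library deposited again. This does not show that they came from separate cultures.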

Additional observations from a re-analysis of the deposited data

Results flagged for a closer look

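For 9 members the Tet2CD effect, averaged over the 3 treatments, differed between SW480 and SW620 by a test of the difference in the edgeR fit. SW480 minus SW620 was -1.28 for MKI67, -1.39 for ANLN, -1.21 for INCENP, -1.04 for KIF20A, -0.88 for ESPL1, -0.83 for CENPF, -0.48 for PLK1, -0.48 for FOXM1 and -0.32 for KIF2C on the log2 scale. The effect in SW620 itself was -0.17 for MKI67, -0.26 for ANLN, -0.11 for INCENP, -0.12 for KIF20A, -0.03 for ESPL1, -0.34 for CENPF, 0.03 for PLK1, 0.10 for FOXM1 and -0.08 for KIF2C, and none of these passed. TET2 itself was at 894, 827 and 270 CPM in SW480 Tet2CD replicate 1, the libraries that stood apart, in DMSO, TGFB1 and RepSox. In replicate 2 it was at 1849, 2640 and 1690 CPM. It was at 693 to 1276 CPM in the Tet2CD libraries of SW620, and the part of these differences in the result was not tested.

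The RepSox effect on NDC80 differed between the lines by -0.91, with -0.37 in SW480 and 0.54 in SW620.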

How the results depend on the processing

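Calls among the 40 members depended most on the 3 SW480 Tet2CD replicate 1 libraries and on which libraries shared the estimate of the spread. The counts below show how calls moved under each alternative. They stand without the shares of all genes from the same fits and are no result about the members. Of the members called, 12 of 22 with TGFB1 in SW620, 19 of 28 with Tet2CD in SW480 over the treatments, 2 of 9 in its difference between the lines, 4 of 7 and 11 of 16 between the vector lines in DMSO and over the treatments, and none of the others passed under every alternative. Where no filter on low counts was used, 9 members passed with Tet2CD in SW480 in DMSO, 3 in its difference, 1 with RepSox in SW620 and 2 in the RepSox difference. With an offset for GC content the counts were 4 for Tet2CD in SW480 in DMSO, 3 for TGFB1 in SW480, 1 for the TGFB1 difference, and 17 and 26 between the vector lines in DMSO and over the treatments, and NDC80 turned from a fall with Tet2CD in SW480 over the treatments to 0.10 (adjusted p = 0.515). Without the 3 libraries the counts were 7 for Tet2CD in SW480 in DMSO and 1 for its difference, 3 for Tet2CD in SW620 over the treatments and 14 for that difference, 9 for TGFB1 in SW480, 18 for RepSox in SW620, 12 and 6 for the TGFB1 and RepSox differences, and 19 and 28 between the lines. With the libraries of each contrast alone they were 3 and 7 for Tet2CD in DMSO in SW480 and SW620, 8 for SW620 over the treatments, 36 (1 higher and 35 lower) for TGFB1 and 22 for RepSox in SW620, 0 for the RepSox difference, and 22 and 27 between the lines. DESeq2 called 2 for Tet2CD in SW480 in DMSO, 1 for its difference, 6 for TGFB1 in SW480 and 3 for the RepSox difference.

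Leaving out 1 library at a time gave 0 to 1 calls for Tet2CD in SW480 in DMSO, 25 to 31 over the treatments, 4 to 24 for the latter's difference, 0 to 2 for TGFB1 in SW480, 13 to 18 for TGFB1 in SW620, 0 to 1 for RepSox in SW480, 0 for RepSox in SW620, 0 to 1 for the TGFB1 difference, 0 to 13 for the RepSox difference, and 6 to 7 and 11 to 14 between the lines. With 1 library left in a group, it is assumed to vary like the others. The replicate numbers follow accession order, and nothing in the labels pairs the libraries. A term for the set of library numbers, 21 to 32 against 33 to 44, acts as a replicate block and gave 2 calls for Tet2CD in SW480 in DMSO, 1 for TGFB1 in SW480, 13 for the Tet2CD difference over the treatments and 25 for TGFB1 in SW620. At 2146123 to 4410567 counts a library, changes of low genes such as CENPE and KIF18A are measured with less precision.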

Other observations

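The 10 genes outside all lists whose levels followed the mean of the 40 mitosis genes most closely over the 12 group means were MRPL3 (r = 0.987), ETF1 (0.952), DDX1 (0.952), KNSTRN (0.952), MAPRE1 (0.945), XRCC5 (0.944), LMNB1 (0.940), RBBP8 (0.940), NAA50 (0.939) and FYTTD1 (0.939). KNSTRN and MAPRE1 encode proteins of spindle microtubules, LMNB1 a nuclear lamin and MRPL3 a mitochondrial ribosomal protein. The r values are a description over 12 points that include the 3 SW480 Tet2CD libraries that stood apart.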
